A study of Mus musculus with 19 samples.

Results

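Among 19 mouse hearts profiled on expression arrays, 8 were taken as high and 8 as low in adipocyte transcripts, and the other 3 were not compared. Each array was scored by the mean log2 value of Adipoq, Plin1 and Cidec, and arrays were ranked by that score within their own group. The 3 highest and 3 lowest arrays of each wild-type group and the 2 highest and 2 lowest of the knockout group were set against each other. The score is a measured value of the same arrays, so the classes are neither treatments nor groups named by the labels.

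The hearts had been excised and perfused by the Langendorff method, with a stabilisation period, 20 min without flow and 20 min of reperfusion before freezing. Of these hearts, 7 came from wild-type C57Bl6J mice at ZT0, 7 from wild-type C57Bl6J mice at ZT12 and 5 from mice labelled Reverb alpha KO at ZT12, where ZT is zeitgeber time, counted in hours from lights on. The sources used here do not give the strain of the knockout mice, how the knockout was made, or the age and sex of any mouse. Every heart, controls included, went through ischemia and reperfusion, so no group was free of ischemia. The labels call the replicates biological but do not say how much tissue was trimmed from each heart.

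Arrays were alike in overall level, with medians of 3.25 to 3.32 on the log2 scale and pairwise correlations of 0.972 to 0.985. Nr1d1, which encodes Rev-erb alpha, ran from 6.30 to 6.51 in the arrays labelled knockout, from 6.46 to 7.28 in wild type at ZT12 and from 5.76 to 6.67 in wild type at ZT0. The difference of knockout from wild type at ZT12 was -0.35 (SE 0.15, limma adjusted p = 0.37). Which part of the gene the probe set reads is not given in the sources used here, so these values do not check the knockout label.

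Adipocytes store triglyceride in a large lipid droplet and release it as fatty acids and glycerol. White adipocytes also secrete hormones such as adiponectin, leptin and, in mice, resistin, while brown adipocytes burn lipid for heat through the uncoupling protein UCP1. Fat lies on the outside of the heart, around the great vessels and close to the atria, and a heart removed for perfusion can carry some of it. Cardiomyocytes share part of the adipocyte's lipid machinery, such as lipoprotein lipase and droplet coat proteins, so those transcripts do not separate the cell types.

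The genes used to rank the hearts were Adipoq (adiponectin), Plin1 (perilipin 1, the coat protein of the adipocyte droplet) and Cidec (a droplet fusion protein). In wild type at ZT0 the mean of these genes was 4.73, 4.39 and 4.21 in the high hearts (replicates 2, 5 and 3) and 3.75, 3.62 and 3.62 in the low hearts (replicates 7, 4 and 6). At ZT12 it was 5.56, 4.89 and 3.86 in the high wild-type hearts (replicates 7, 1 and 4) and 3.71, 3.64 and 3.12 in the low ones (replicates 2, 5 and 3). In the hearts labelled knockout it was 5.54 and 4.33 in the high (replicates 1 and 3) and 3.5 and 3.38 in the low (replicates 2 and 5). Both classes were uneven: WT ZT12 replicate 4 counted as high although it lay below the middle arrays of the other groups.

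The threshold was close in one group and wide in the others. The array left out in the middle was at 4.08 in wild type at ZT0, at 3.72 in wild type at ZT12 and at 3.89 in the knockout. In wild type at ZT12 that middle array lay next to the highest low heart, at 3.71, and the lowest high heart was at 3.86. The high class had a mean score of 4.69 ± 0.62 (SD, n = 8) and the low class 3.54 ± 0.20 (SD, n = 8). The difference of the class means was 0.78 in wild type at ZT0, 1.28 in wild type at ZT12 and 1.5 in the knockout.

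**Figure D1:**
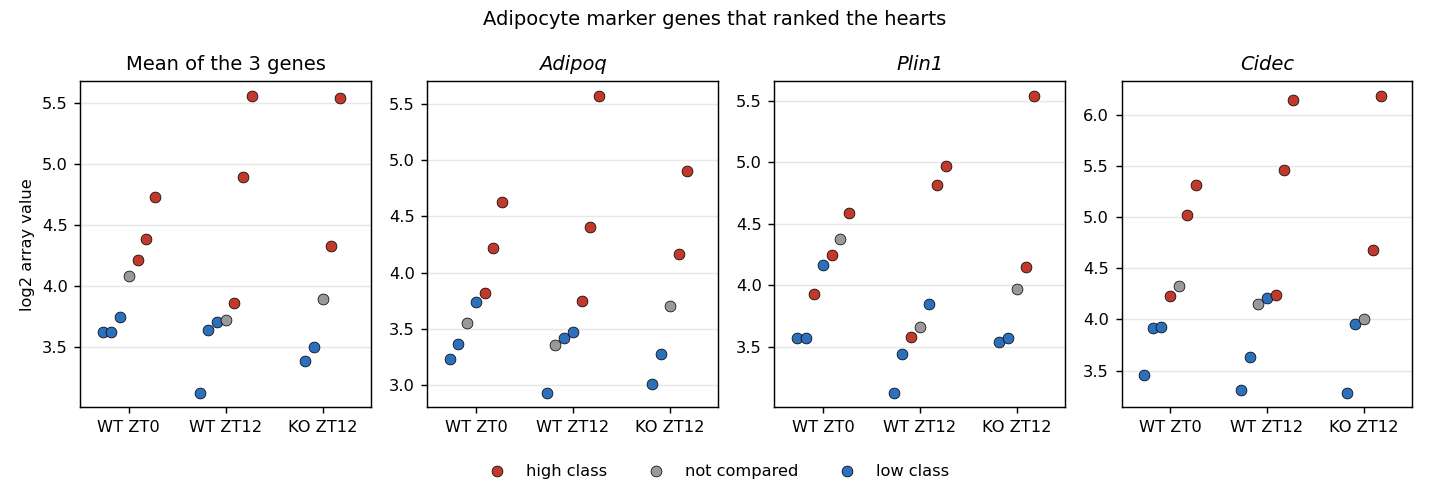
Log2 values of Adipoq, Plin1 and Cidec and their mean in each of the 19 arrays, by group, with points coloured by class (high, low or not compared). The classes are defined by the mean, which ran from 3.86 to 5.56 in the high hearts and from 3.12 to 3.75 in the low hearts.

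All 3 genes contributed to the ranking. The high minus low difference was 1.13 for Adipoq, 0.87 for Plin1 and 1.45 for Cidec. These differences are what the ranking selected, and no test is given for them. Adipoq ran from 3.75 to 5.57 in the high and from 2.93 to 3.74 in the low hearts, and Cidec from 4.23 to 6.18 and from 3.29 to 4.2. Plin1 overlapped between the classes, at 3.58 to 5.54 in the high and 3.13 to 4.17 in the low hearts. The label of attached adipose tissue rests on these transcripts, since no measure of attached tissue was recorded. In whole hearts, more adipocytes and more of these RNAs per adipocyte cannot be told apart.

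The remaining 22177 genes were compared between high and low hearts with the group as a covariate. Since ranking and comparison used the same arrays, a gene called here is one that varied together with the 3 markers from heart to heart. A gene was called at a limma adjusted p under 0.05. In all, 7 genes were higher in the high hearts (0.0316% of those tested) and 0 were lower (0%). At an unadjusted p under 0.05, 709 genes were higher (3.2%) and 588 lower (2.65%).

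The called genes were Retn, Car3, Cdo1, Hp, Scd1, Cyp2e1 and Car5b. Retn encodes the hormone resistin, which mouse white adipocytes secrete. Its log2 level ran from 5.47 to 7.40 with a median of 6.89 in the 8 high hearts, and from 4.49 to 5.39 with a median of 4.79 in the 8 low hearts. The classes did not overlap, either within a group or over all groups. The difference was 1.88 (SE 0.21, limma adjusted p = 0.0015), a 3.67-fold higher level.

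Car3 encodes carbonic anhydrase 3, one of the most abundant proteins of rodent adipocytes. It ran from 7.33 to 9.80 (median 8.89) in the high hearts and from 5.19 to 7.08 (median 6.33) in the low hearts, again without overlap. It was higher by 2.65 (SE 0.31, limma adjusted p = 0.0015), which is 6.26-fold. A second, dimmer probe set of Car3 gave a difference of 2.64.

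Scd1 encodes stearoyl-CoA desaturase 1, which makes monounsaturated fatty acids. It showed the largest difference of the 7, with levels of 6.66 to 10.44 (median 8.83) in the high and 5.01 to 8.21 (median 5.80) in the low hearts. The classes overlapped in wild type at ZT0, where the low heart replicate 7 reached 8.21 and the high heart replicate 3 was at 8.07. The difference was 2.87 (SE 0.46, limma adjusted p = 0.049), or 7.31-fold.

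Cdo1 encodes cysteine dioxygenase, an enzyme of taurine synthesis that is abundant in liver and fat. It ran from 4.81 to 7.64 (median 6.20) in the high and from 3.85 to 5.38 (median 4.46) in the low hearts. Within each group the high hearts lay above the low hearts, although the classes overlapped between groups. The difference was 1.85 (SE 0.31, limma adjusted p = 0.049).

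Hp encodes haptoglobin, a haemoglobin-binding plasma protein made by liver and adipocytes. It ran from 4.44 to 6.5 (median 5.58) against 3.35 to 4.73 (median 4.08), and the high hearts were above the low in every group. It was higher by 1.49 (SE 0.25, limma adjusted p = 0.049).

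Cyp2e1 encodes a cytochrome P450 best known from liver. It ran from 4.98 to 7.55 (median 6.46) in the high and from 3.63 to 5.5 (median 4.30) in the low hearts. The overlap came from WT ZT12 replicate 4 at 4.98, a high heart, and WT ZT12 replicate 2 at 5.5, a low heart. It was higher by 2.01 (SE 0.34, limma adjusted p = 0.049).

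Car5b, a mitochondrial carbonic anhydrase, was the dimmest of the called genes, at 3.92 to 5.62 (median 4.62) against 3.31 to 4.13 (median 3.48). Its classes did not overlap within any group. The difference was 1.07 (SE 0.18, limma adjusted p = 0.049). WT ZT12 replicate 4 was the lowest of the high hearts in all 7 genes.

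Only Retn and Car3 held their call when any single array was left out, with adjusted p-values of at most 0.0068 and 0.0069. Scd1 and Car5b lost it in 13 of the 16 omissions, Cyp2e1 and Cdo1 in 14 and Hp in 15, at adjusted p-values of 0.052 to 0.16. Leaving out WT ZT12 replicate 4 kept every one of these calls and gave 10 called genes. Without WT ZT0 replicate 3 there were 5 called genes, and without any one of the other arrays 2 to 4.

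**Figure D2:**
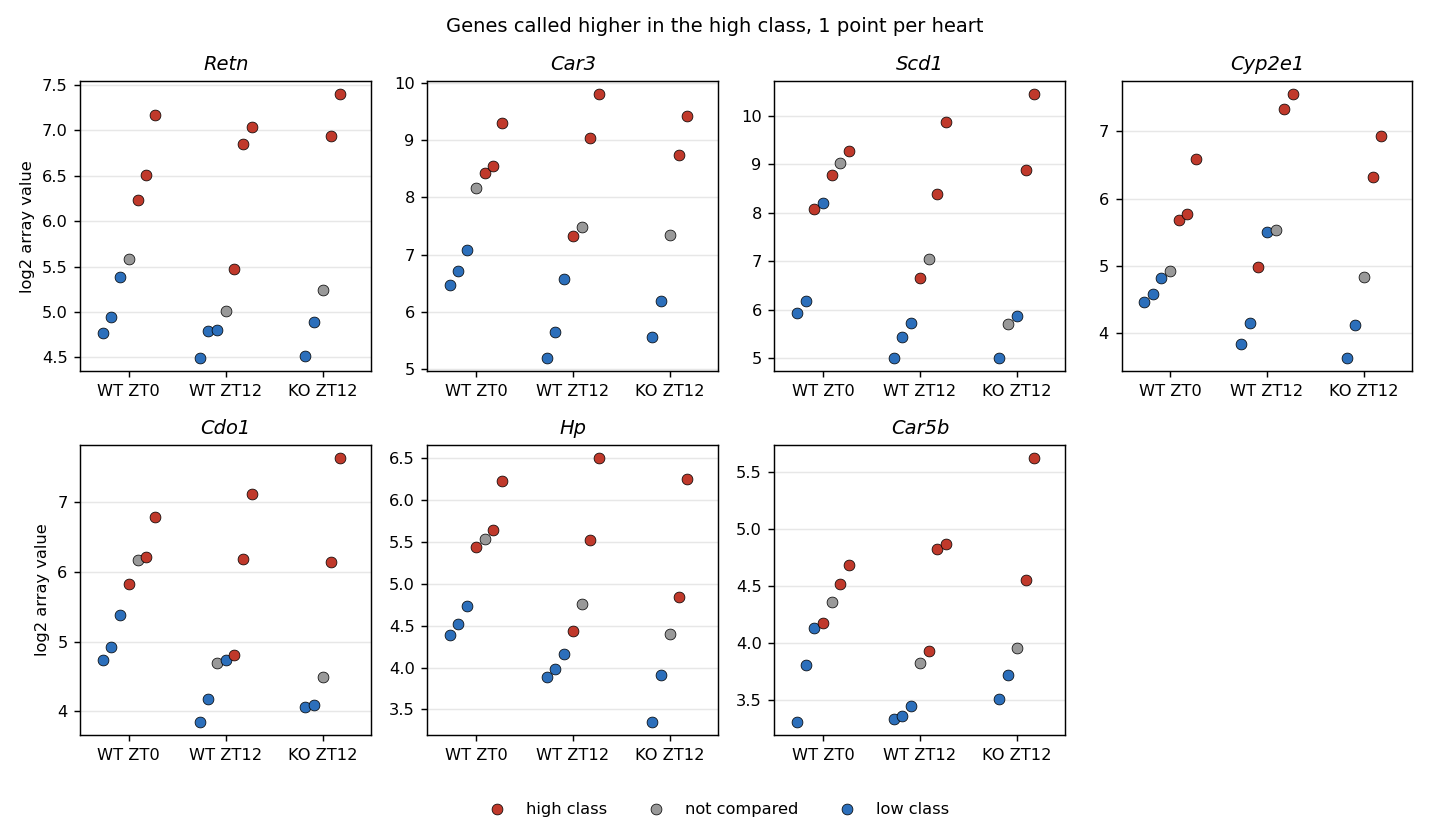
Log2 levels of the 7 called genes in every array, by group, with points coloured by class. Retn and Car3 separate the classes over all groups, while Scd1 and Cyp2e1 overlap within one group each.

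Complete separation in every group was rare over the array. In 27 of 22177 genes all high hearts lay above all low hearts in each of the 3 groups (0.122%), and in 11 they lay below (0.0496%). Retn, Car3, Cdo1, Hp and Car5b were among the 27, as were Fasn, Slc25a1, Pck1 and Pnpla3 of the lipid lists. These last 4 did not pass the adjusted threshold.

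Start-site sequences are shown for marker genes and called genes, since these transcripts varied together. RefSeq's promoter table (GRCm38.p6) held all 3 markers and 3 of the 7 called genes, namely Retn, Cyp2e1 and Car5b. Scd1, Car3, Cdo1 and Hp are named only. The 250 bases before the start site are shown for a pair of markers and a pair of called genes, 5′ to 3′ on the gene's strand, with motif matches in capitals. The motifs were TTGCNNAA, a C/EBP site, CCAAT and TATAAA, searched on both strands.
Adipoq: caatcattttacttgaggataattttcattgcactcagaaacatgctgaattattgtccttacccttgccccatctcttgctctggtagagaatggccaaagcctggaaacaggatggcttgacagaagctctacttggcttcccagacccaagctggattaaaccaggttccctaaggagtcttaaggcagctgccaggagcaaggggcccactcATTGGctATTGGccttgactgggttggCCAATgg
Plin1: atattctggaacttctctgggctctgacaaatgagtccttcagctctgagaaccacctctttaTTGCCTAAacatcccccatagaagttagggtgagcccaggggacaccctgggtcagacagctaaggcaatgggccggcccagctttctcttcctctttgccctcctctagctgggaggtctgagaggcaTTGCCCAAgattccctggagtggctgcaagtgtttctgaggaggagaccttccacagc
Retn: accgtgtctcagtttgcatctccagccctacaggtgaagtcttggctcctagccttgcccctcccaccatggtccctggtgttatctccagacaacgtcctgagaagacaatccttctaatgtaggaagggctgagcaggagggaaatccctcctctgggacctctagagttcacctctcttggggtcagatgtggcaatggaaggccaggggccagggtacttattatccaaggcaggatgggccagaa
Cyp2e1: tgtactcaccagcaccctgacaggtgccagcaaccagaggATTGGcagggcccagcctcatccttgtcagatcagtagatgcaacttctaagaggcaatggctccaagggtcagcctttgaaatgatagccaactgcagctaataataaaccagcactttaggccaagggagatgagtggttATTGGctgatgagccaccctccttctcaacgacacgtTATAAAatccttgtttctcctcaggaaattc

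These windows are chr16:23146286-23146535 on the plus strand for Adipoq and chr7:79732777-79733026 on the minus strand for Plin1. Those of Retn and Cyp2e1, both on the plus strand, are chr8:3655520-3655769 and chr7:140763569-140763818. Plin1 held 2 C/EBP matches, Adipoq 3 CCAAT matches, and Cyp2e1 2 CCAAT matches and 1 TATAAA. Retn held none of these letters in the window. Over all 32851 promoters of that length, 9.56% held the C/EBP letters, 33.8% CCAAT and 12.4% TATAAA. A match is a description of letters and not a binding site.

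Lists of adipocyte genes, chosen with earlier results of these data known, were then read by their roles. The 9 adipocyte-related lists held 98 measured genes, of which 4 were called higher (Retn, Car3, Scd1 and Cdo1) and 0 lower. Over all genes tested, 7 of 22177 were called higher (0.0316%) and 0 lower. At an unadjusted p under 0.05, 34 of the 98 were higher and 1 lower, beside 3.2% and 2.65% of all genes tested. The median difference over the 98 genes was 0.11, beside -0.01 over all genes tested. The other 19 lists held 156 further genes, of which 0 were called in either direction, with 15 higher and 0 lower at an unadjusted p under 0.05.

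Among adipokines and other secreted proteins, 1 of 10 was called, which was Retn, and the median difference was 0.29 (0.15 without WT ZT12 replicate 7). Leptin (Lep), the satiety hormone, ran from 2.79 to 4.46 in the high and from 2.57 to 3.51 in the low hearts, a difference of 0.56 (limma adjusted p = 0.74). Lep is dim on these arrays, and its difference was -0.01 in wild type at ZT0, 0.80 in wild type at ZT12 and 1.05 in the knockout.

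Fatty acid synthesis was the list with the largest median of the 9, at 0.81. All 13 of its measured genes were higher in the high hearts by sign, 9 of them at an unadjusted p under 0.05, and 1, Scd1, was called. Over all genes tested, 10533 of 22177 were higher by sign, and 3.2% were higher at an unadjusted p under 0.05. Fasn, fatty acid synthase, ran from 5.77 to 9.17 (median 7.44) in the high and from 5.0 to 7.0 (median 5.5) in the low hearts. Within each group the high hearts were above the low, and the difference was 1.97 (SE 0.37, limma adjusted p = 0.091). Slc25a1, the mitochondrial citrate carrier that supplies this pathway, differed by 1.09 (limma adjusted p = 0.079). The enzymes Elovl6, Acaca and Acly differed by 1.70, 0.95 and 0.81 and did not pass. These 5 genes were chosen after their values were seen.

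Triglyceride storage genes, many of which cardiomyocytes also express, gave no call. Among fatty acid uptake and triglyceride synthesis genes 0 of 13 were called, with a median of 0.06. Lpl, lipoprotein lipase, was at 11.51 in the high and 11.53 in the low hearts, a difference of -0.02. Fabp4, a fatty acid carrier of adipocytes and endothelium, differed by 0.26 (limma adjusted p = 0.74). Pck1, which makes phosphoenolpyruvate, an early step of glyceroneogenesis in adipocytes, ran from 4.22 to 6.79 in the high and from 3.88 to 4.15 in the low hearts, without overlap (difference 1.09, limma adjusted p = 0.43). Gpd1, which makes glycerol 3-phosphate for triglyceride, differed by 0.65 (limma adjusted p = 0.43), and by 0.16 in a second, dimmer probe set.

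Lipid droplet proteins gave 0 called of 11 and a median of 0.04. Cidea, a droplet protein of brown and white fat, differed by 0.51 (limma adjusted p = 0.57), and G0s2, an inhibitor of the lipase ATGL, by 0.23. A second, dimmer probe set of G0s2 gave -0.077. The droplet coats Plin2, Plin4 and Plin5, which cardiomyocytes express, differed by 0.08, 0.11 and -0.01. In the lipolysis list 0 of 9 were called, with a median of 0.15 (0.088 without WT ZT12 replicate 7). Pde3b, the phosphodiesterase through which insulin restrains lipolysis, differed by 0.65 (limma adjusted p = 0.23), and Acvr1c, an activin receptor of adipocytes, by 0.36 (limma adjusted p = 0.61). The lipases Lipe and Pnpla2 differed by 0.15 and -0.06.

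Among transcription factors of adipogenesis 0 of 11 were called, with a median of 0.07. Cebpa differed by 0.42 (limma adjusted p = 0.48) and Pparg by 0.24 (limma adjusted p = 0.74). Of the insulin response genes, 0 of 7 were called, with Trarg1 at 0.40 and Slc2a4, the insulin-regulated glucose transporter, at -0.05. The list of other adipocyte-rich genes had 2 of 10 called, Car3 and Cdo1, and a median of 0.37. Lgals12, a galectin of adipocyte droplets, differed by 1.20 (limma adjusted p = 0.40).

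Brown and beige adipocyte genes gave 0 called of 15 and a median of 0.15 (0.078 without KO ZT12 replicate 1). Ucp1 ranged widely between hearts. In the high hearts it was at 6.03, 4.02 and 4.82 in wild type at ZT0 (replicates 2, 5 and 3), at 7.80, 5.18 and 3.38 in wild type at ZT12 (replicates 7, 1 and 4), and at 8.39 and 5.06 in the knockout (replicates 1 and 3). In the low hearts it was at 5.56, 3.34 and 2.76 at ZT0 (replicates 7, 4 and 6), at 2.98, 2.98 and 3.07 at ZT12 (replicates 2, 5 and 3), and at 3.39 and 2.83 in the knockout (replicates 2 and 5). The classes separated at ZT12 in both genotypes but overlapped at ZT0, where a low heart reached 5.56. The difference was 2.22 (SE 0.62, limma adjusted p = 0.51). Ppargc1a, a coactivator abundant in heart muscle, differed by -0.09, and Elovl3, a brown fat elongase, by 0.28.

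**Figure D3:**
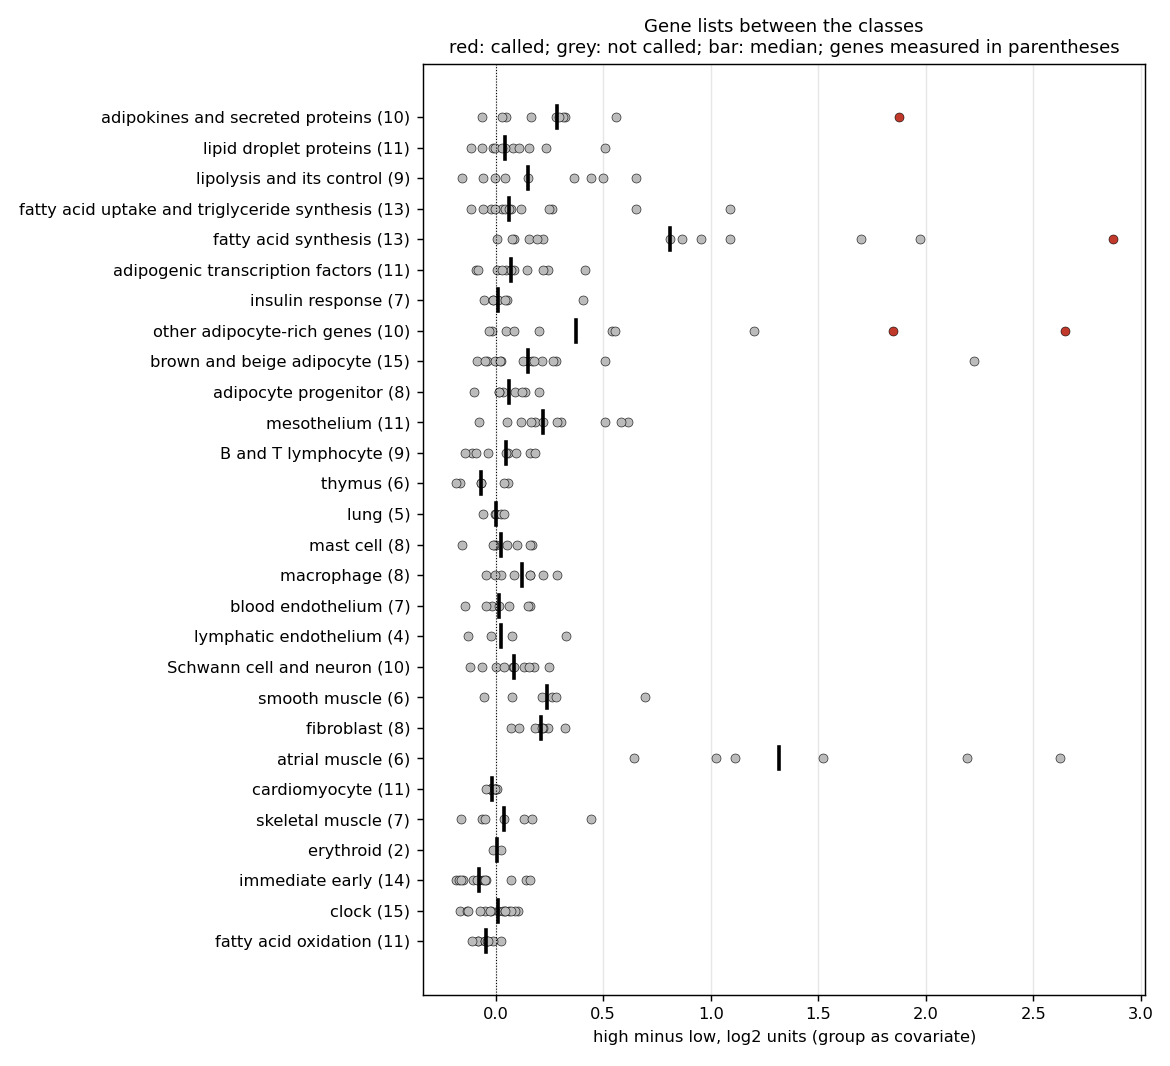
High minus low difference on the log2 scale for the genes of each list, 1 point per measured gene with the list median marked, called genes in red. Fatty acid synthesis (median 0.81) and atrial muscle (median 1.32) stand to the right of the other lists, whose medians lie between -0.08 and 0.37.

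The classes also differed in transcripts of atrial muscle. The atrial list (6 genes) had a median difference of 1.32, with 0 called and 5 higher at an unadjusted p under 0.05. Of all genes tested, 3.2% were higher at that threshold. Its mean level ran from 7.63 to 9.50 in the high hearts and from 5.19 to 9.12 in the low hearts. Myl7, the atrial regulatory light chain, differed by 2.19 (limma adjusted p = 0.43), Myl4, the atrial essential light chain, by 1.03 (limma adjusted p = 0.39), and Sln, sarcolipin, by 2.62 (limma adjusted p = 0.43).

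In the hearts labelled knockout the same arrays made up both splits. Myl7 was at 9.70 and 9.30 in the high and at 4.05 and 4.24 in the low hearts, a difference of 5.36. In wild type at ZT0 the difference in Myl7 was 0.71 and in wild type at ZT12 it was 1.56. When the knockout hearts were fitted alone, 2 high against 2 low, 7 of 22177 genes were called, none of them shared with the 7 above. Myl7, Sln, Dkk3, Mybphl, Sbk3 and Tmem163 were among them. A fit of so few arrays is not on a par with that of the 16. Bmp10, a right atrial growth factor, was above 7 in 6 of the 8 high hearts, in 4 of the 8 low hearts and in 0 of the 3 middle hearts.

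Adding the mean of the atrial list as a covariate left 0 genes called. Car3 then differed by 1.86 (limma adjusted p = 0.063) and Retn by 1.44 (limma adjusted p = 0.065). With Bmp10 in its place 8 genes were called, and among hearts with Bmp10 above 7 alone 3 were, namely Car3, Retn and Cyp2e1. The atrial level and the marker level moved together, and the part of the atrial tissue in the 7 calls was not tested beyond these fits.

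Markers of other tissues near the heart gave no call between the classes. Mesothelium, the covering layer of the heart and its fat, had a median of 0.22 over 11 genes with 0 called. By sign 10 of the 11 were higher in the high hearts, 5 of them at an unadjusted p under 0.05. Of all genes tested, 3.2% were higher at that threshold. The part of this tissue in the 7 calls was not tested. The mean of the list ran from 3.91 to 4.40 in the high and 3.58 to 4.10 in the low hearts, and the markers Upk3b and Gpm6a differed by 0.61 and 0.58. Adipocyte progenitor genes had a median of 0.06 over 8 genes, with Pi16 at 0.20 and Fgf10 at 0.12 (0.027 in a second, dimmer probe set). Fibroblast genes had a median of 0.21 over 8 genes, with Col1a2 and Col3a1 at 0.21 and 0.32. By sign 8 of the 8 were higher, 0 of them at an unadjusted p under 0.05. A second, dimmer probe set of Col1a2 gave 0.15. Without KO ZT12 replicate 5 the main values were 0.12 for the list, 0.12 for Col1a2 and 0.20 for Col3a1. Smooth muscle genes had a median of 0.24 over 6 genes, with Cnn1 (calponin) at 0.70 and Acta2 at 0.26. By sign 5 of the 6 were higher, 2 of them at an unadjusted p under 0.05, beside 3.2% of all genes tested. The part of smooth muscle in the 7 calls was not tested, and 0 of these lists' genes were called.

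Macrophage genes had a median of 0.12 over 8 genes (0.081 without KO ZT12 replicate 1 and 0.040 without KO ZT12 replicate 5), with Cd14 at 0.28 and Mrc1 at 0.22. Blood endothelium had a median of 0.02, with Pecam1 at 0.16 and Kdr at -0.14. Lymphatic endothelium had a median of 0.03, with Lyve1 at 0.33 and Flt4 at -0.13. Schwann cell and neuron genes, which include Chat (0.15) and Snap25 (0.25), had a median of 0.08.

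Lymphoid, thymic, lung and mast cell markers gave no call. Their defining genes were dim: the mean level of the list lay between 2.82 and 3.58 for lymphocytes in the low hearts and between 2.83 and 3.29 in the high. For the thymus list, whose gene Foxn1 differed by -0.19 and Cd4 by -0.17, the means were 2.98 to 3.3 in the low and 2.93 to 3.33 in the high hearts. Lung genes stood at 2.80 to 3.04 in the high and 2.81 to 3.05 in the low hearts, with Scgb1a1 at -0.06 and Ager at 0.04. Mast cell genes stood at 2.64 to 3.0 and 2.62 to 2.94, with Cpa3 at 0.17 and Mcpt4 at -0.16. Cd3g and Cd3e, which mark T cells, differed by 0.16 and -0.14.

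No gene of the cardiomyocyte or fatty acid oxidation lists was called. Cardiomyocyte genes had a median difference of -0.02 over 11 genes, Atp2a2 (the sarcoplasmic calcium pump) one of -0.05 and Pln (phospholamban) one of -0.03. Fatty acid oxidation genes had a median of -0.05 over 11 genes, with Acadvl at -0.11 and Acadm at -0.08. By sign 1 of 11 was higher in the high hearts in each of these lists, beside 10533 of 22177 over all genes tested. In both lists 0 genes differed in either direction at an unadjusted p under 0.05. Skeletal muscle genes had a median of 0.04 over 7 genes, with Myl1 at 0.44 and Actn3 at 0.17. The erythroid list had 2 measured genes, Slc4a1 (0.03) and Epb42 (-0.01, and 0.00025 after quantile normalization). Immediate early genes, which respond to handling and ischemia, had a median of -0.08 over 14 genes, with Ier3 at 0.14 and Jun at -0.15. Clock genes had a median of 0.01 over 15 genes, with Nr1d2 at -0.13 and Per3 at -0.14.

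Classes cut a continuous score, so the slope of each gene on the score was also fitted over all 19 arrays with the group as a covariate. The slope is the log2 change of a gene per log2 unit of the score. In this fit 53 genes rose with the score (0.239% of 22177) and 0 fell (0%). All 7 genes named above were among the 53, and 22 of the 53 belonged to the adipocyte-related lists, 2 to other lists and 29 to none. The 19 arrays include the 16 of the classes, so this is a second reading of the same values and not independent support.

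Fatty acid synthesis held 7 of the slope calls among its 13 genes. Fasn had a slope of 1.70 (limma adjusted p = 1.99e-07), Scd1 one of 2.24 (1.09e-05, limma adjusted) and Elovl6 one of 1.56 (4.68e-05, limma adjusted). Thrsp, a regulator of lipid synthesis, had one of 0.75, and Acaca, Acly and Slc25a1 had 0.89, 0.74 and 0.90. All 7 were also called with the atrial mean as a covariate. Without WT ZT12 replicate 7 and KO ZT12 replicate 1, the 2 arrays of highest score, 3 of the 7 were called (Fasn, Scd1 and Slc25a1), and among hearts with Bmp10 above 7 it was 5, without Elovl6 and Acly. Among the called genes, Hp had a slope of 1.20 and Cdo1 one of 1.52, each at a limma adjusted p of 5.88e-08. The slope of Pck1 was 1.08 (limma adjusted p = 3.87e-07).

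Ucp1 had a slope of 2.22 (limma adjusted p = 3.90e-05), close to the slope of Scd1. Its slope was 1.60 with an adjusted p of 0.40 when the 2 arrays of highest score, WT ZT12 replicate 7 and KO ZT12 replicate 1, were left out. Without those 2 arrays 12 genes were called, and the slopes of Retn, Car3 and Cyp2e1 were 1.73, 2.39 and 2.06, against 1.34, 1.88 and 1.55 over all arrays. The leptin slope of 0.57 (limma adjusted p = 0.0024) fell short of the threshold in 1 of 19 omissions, and it was not called with the atrial mean as a covariate (limma adjusted p = 0.80), without the 2 arrays of highest score (0.62, limma adjusted) or among hearts with Bmp10 above 7 (0.84, limma adjusted). Cnn1 and Dkk3, the called genes of the smooth muscle and atrial lists, had slopes of 0.53 and 0.98, each at a limma adjusted p of 0.032, and 0.21 and 0.08 with the atrial mean as a covariate, where neither was called.

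Single arrays moved this count. It was 26 without KO ZT12 replicate 1, 32 without WT ZT12 replicate 7 and 83 without WT ZT12 replicate 2. All 7 called genes kept their slope call in each of the 19 omissions. With the atrial mean as a covariate they also kept it, at limma adjusted p-values of 0.00010 to 0.021. Among hearts with Bmp10 above 7 Car5b did not keep it (limma adjusted p = 0.20).

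**Figure D4:**
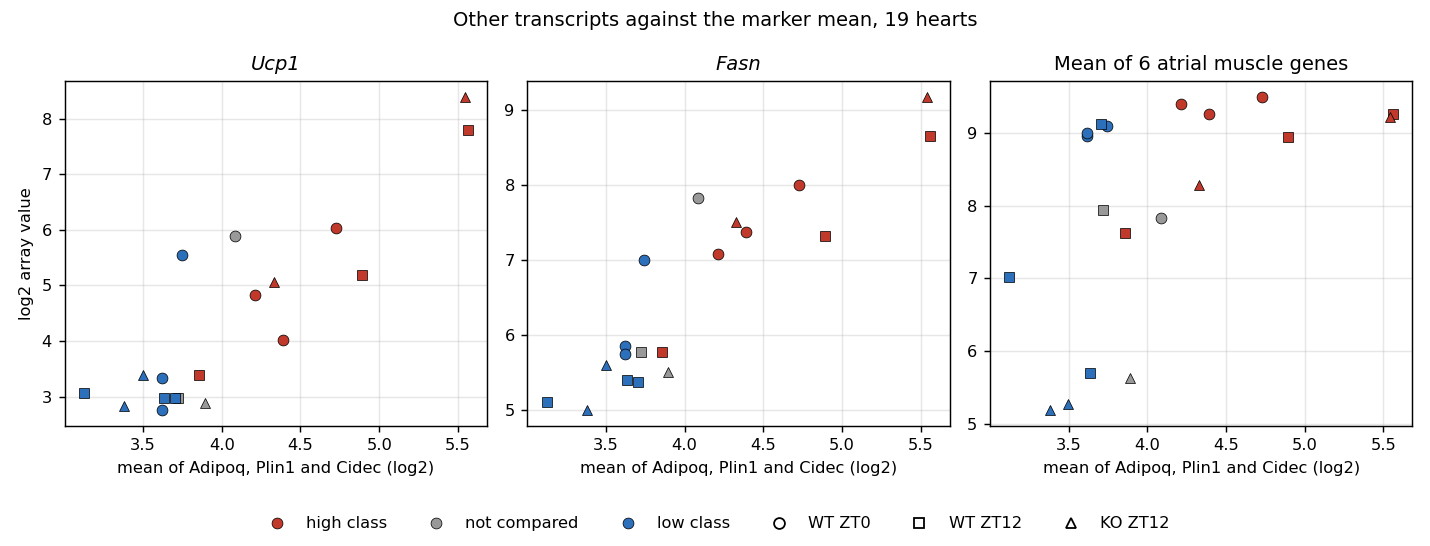
Log2 level of Ucp1, Fasn and the mean of the 6 atrial list genes against the mean of Adipoq, Plin1 and Cidec, 1 point per heart over all 19 hearts, with colour for class and symbol for group. Ucp1 is highest, at 7.80 and 8.39, in the 2 hearts with a marker mean of 5.56 and 5.54. Fasn lies between 5.0 and 7.0 in the low hearts and between 5.77 and 9.17 in the high hearts. The atrial mean lies between 5.19 and 9.12 in the low hearts and between 7.63 and 9.50 in the high hearts.

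The high minus low difference was not shown to differ between groups. For wild type at ZT12 against ZT0, 0 of 22177 genes had a called interaction (limma, 990 at an unadjusted p under 0.05, smallest adjusted p = 0.999). For knockout against wild type at ZT12, 0 had one (limma, 1105 at an unadjusted p under 0.05, smallest adjusted p = 0.990). In the wild-type hearts alone 0 genes were called for high against low, and Retn and Car3 both had a limma adjusted p of 0.115. Each of these tests rests on 2 or 3 hearts per class and group.

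The markers themselves were not called between the study's groups. Group means of the score were 4.06 in wild type at ZT0, 4.07 in wild type at ZT12 and 4.13 in the knockout, and their SDs were 0.42 (n = 7), 0.85 (n = 7) and 0.87 (n = 5). Adipoq differed by 0.05 between wild type at ZT12 and ZT0 (SE 0.34, limma adjusted p = 0.97). It differed by -0.03 between knockout and wild type at ZT12 (SE 0.37, limma adjusted p = 0.99). The spread between hearts of a group was larger than the difference between groups, and these SEs leave room for shifts of the markers in either direction.

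Some adipocyte-related genes were called between groups, and none of those was among the 53 genes of the slope fit. Between ZT12 and ZT0 in wild type 250 of all 22180 genes were called (1.13%), and 5 of the 98 adipocyte-related genes were, namely Plin5, Dgat2, Klf15, Irs1 and Pik3r1. Between knockout and wild type at ZT12 162 were called (0.73%), including Agt, Plin4, Plin5, Aqp7 and Pik3r1. Between knockout at ZT12 and wild type at ZT0 298 were called (1.34%), including Agt, Plin4, Cebpb, Klf15 and Pik3r1. These comparisons share arrays, so they are not separate evidence for a gene.

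Plin5, the droplet coat of oxidative tissue, differed by -0.43 between ZT12 and ZT0 in wild type (limma adjusted p = 0.048), and was higher by 0.63 in the knockout than in wild type at ZT12 (limma adjusted p = 0.0081). Between high and low hearts it differed by -0.01. Plin4 was higher by 0.46 in the knockout than in wild type at ZT12 (limma adjusted p = 0.022) and differed by 0.11 between the classes. Agt, angiotensinogen, was higher by 0.70 in the same comparison (limma adjusted p = 0.0013) and differed by 0.16 between the classes.

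Adding the score as a covariate changed these counts little, to 257, 164 and 318. Of the genes called without it, 234, 149 and 284 were called with it. The call of Plin5 between ZT12 and ZT0 was lost (limma adjusted p = 0.056 with the score). Cdo1, at -0.64 without the score, was called as lower at ZT12 with it (-0.66, limma adjusted p = 0.047). Hp was called as lower in the knockout than in wild type at ZT0 with it (-0.75, limma adjusted p = 0.0077), and had an adjusted p of 0.62 without it. Without the score, the count for the genotypes at ZT12 was 94 to 107 without any 1 of WT ZT12 replicate 2, WT ZT12 replicate 4 and KO ZT12 replicates 2, 3, 4 and 5. Between the knockout and wild type at ZT0 it was 195 without WT ZT0 replicate 5, 171 without KO ZT12 replicate 4 and 192 without KO ZT12 replicate 5.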

How the data were processed

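RNA of 19 mouse hearts, 300 ng each, was hybridised to Affymetrix arrays. The deposited values are probe set summaries made by the authors with RMA, per the submitters' processing notes. The authors' values were taken as log2, since they ran from 0.21 to 12.88. For RMA, neither version nor annotation is given in the sources used here. Of 41345 probe sets, 23521 list 1 gene in GEO's platform annotation, which can be old, 1814 list several and 16010 none. A gene was represented by its single-gene probe set of highest mean, giving 22180 genes. Its Entrez identifiers were looked up in RefSeq's gene table, which held 23328 of the 23521 and changed 0 symbols.

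limma 3.58.1 (R 4.3.3) was fitted to high and low hearts with the group as a covariate, over 22177 genes, since the 3 marker genes were left out. Tests were two-sided and adjusted by Benjamini-Hochberg. The labels call replicates biological without naming animals, so p-values measure the spread between these samples. For the study's own groups, all 19 arrays entered a fit of group means.

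The members and lists were chosen with earlier results of these data known. Named were the markers, the 10 largest called rises and falls (clone names, predicted genes, olfactory and vomeronasal receptors and small RNAs left out), up to 4 called genes per list, or the 2 of smallest p where none was called, and called adipokine and brown fat genes. Others were chosen after their values were seen, including Fasn, Lep, Slc25a1, Lgals12, Plin2, Plin4, Plin5, Lpl and Fabp4.

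The number of arrays limits the precision. In data simulated for 16 arrays and 22177 genes, 12%, 88%, 100% and 100% of genes shifted by 0.25, 0.5, 1 and 2 log2 units were recovered, and 5.66% of calls were false. The shifted genes were drawn at random with their own spread, so these shares do not hold for genes that vary widely between hearts. Ucp1 and Myl7, for example, differed by 2.22 and 2.19 and were not called. The adjusted threshold also depends on how many genes are shifted, and that number was set in the simulation. Fasn and Slc25a1, at 1.97 and 1.09, were not called here, while Car5b, at 1.07, was. The shares are therefore not the chance of finding a shift of that size in these hearts. Other probe set rules, a filter on dim probe sets, centring, quantile normalization, robust fitting, covariates, other rankings and the omission of each array were tried as alternatives. The labels do not say whether replicate numbers pair hearts. Over all genes, same-numbered arrays of different groups had deviations that correlated between -0.07 and 0.07. Such a correlation could miss a shared factor that acts on few genes.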

Additional observations from a re-analysis of the deposited data

Results flagged for a closer look

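In 11 of 183 checks (61 quantities in 3 groups) the highest or lowest array lay far from the rest of its group. That is 6.01% of the checks, and chance alone gives about 1 in 20. Of these, 4 were values of adipocyte genes that were high in the hearts with the highest marker scores. Cidea was at 7.68 in KO ZT12 replicate 1 against 6.35 to 6.65 in the other hearts of the group, and Pck1 at 6.18 there against 4.05 to 4.38. In WT ZT12 replicate 7, Pck1 was at 6.79 against 3.88 to 5.03 and Trarg1 at 5.86 against 4.77 to 5.15. These 2 hearts also hold the highest Ucp1 values.

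The mean of the atrial list was at 7.83 in WT ZT0 replicate 1, a middle heart, against 8.95 to 9.50 in the other hearts at ZT0. The remaining values belong to other lists. Cd4 was at 3.93 in WT ZT0 replicate 4 against 3.07 to 3.39, and Chat at 3.02 in KO ZT12 replicate 4 against 3.60 to 3.67. Col1a2 was at 6.01 in KO ZT12 replicate 5 against 6.61 to 6.84, and Col3a1 at 7.04 in WT ZT12 replicate 1 against 6.17 to 6.42. Epb42 was at 2.86 in WT ZT12 replicate 4 against 2.46 to 2.63. Jun was at 9.37 in KO ZT12 replicate 3 against 10.16 to 10.38.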

How the results depend on the processing

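The count of 7 called genes was 3 with a replicate block (a block on replicate number, which the labels do not describe as a pairing). With the atrial mean as a covariate it was 0, in the slope fit 53 and when ranked by Adipoq alone 1. In the wild-type arrays, in wild type at ZT0 alone and in wild type at ZT12 alone it was 0. It was 0 with a wider set, which gave the same class to 19 of 19 arrays but takes Retn, Car3 and Cdo1 out of the tests, and 3 among arrays with bright Bmp10 (chosen after seeing the data). Averaging probe sets (7), dropping dim ones (10), centring (9), quantile normalization (7), eBayes with a trend and robust together (5, of which 3 shared) and Bmp10 as a covariate (8) kept it within 1.5 times. Leaving out 1 array gave 2 to 10. The slope count of 53, under alternatives added after seeing the data, was 19 with the replicate block, 23 with the atrial mean, 12 without the 2 arrays of highest score, 18 with bright Bmp10 and 21 in wild type, and 26 to 83 without 1 array. With the block, 88 genes were called for knockout against wild type at ZT12, 182 for knockout against wild type at ZT0 and 171 between times. Leaving out 1 array gave 94 to 161 and 171 to 311. The causes were not tested.

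Of the 56 genes named by the rule, apart from the markers, 20 changed sign in some setting, none of them called. Genes chosen after their values were seen were not part of this check. Lep is 1 of these, and its difference was negative in wild type at ZT0. In wild type at ZT12 alone this held for G0s2 (-0.012), Ager (-0.11), Cpa3 (-0.025), Mcpt4 (0.10), Pecam1 (-0.0037), Kdr (0.0033), Acta2 (-0.18), Pln (0.0040), Myl1 (-0.069), Epb42 (0.084), Jun (0.26) and Per3 (0.076). In wild type at ZT0 alone it held for Fgf10 (-0.021), Pln (0.013) and Slc4a1 (-0.14). In the knockout alone it held for Scgb1a1 (0.18), Mcpt4 (0.22), Flt4 (0.12), Chat (-0.028) and Snap25 (-0.097). With the atrial mean it held for Gpm6a (-0.0017), Ager (-0.052), Pln (0.0030), Slc4a1 (-0.061) and Epb42 (0.048). In wild type it held for Ager (-0.053), Pln (0.0086), Slc4a1 (-0.0034) and Epb42 (0.040). With bright Bmp10 it held for Slc2a4 (0.011), Ager (-0.053), Pln (0.019) and Slc4a1 (-0.039). With the replicate block it held for Slc4a1 (-0.011) and Epb42 (0.018), and with Bmp10 as a covariate for Slc4a1 (-0.018) and Epb42 (0.018). Epb42 was at 0.00025 after quantile normalization and 0.0099 when ranked by Adipoq. Leaving out 1 array gave -0.017 to 0.081 for Ager, -0.052 to 0.087 for Slc4a1 and -0.052 to 0.018 for Epb42.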

Other observations

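Of the 29 genes of no list whose level rose with the marker mean over 19 arrays, 6 were also called with the atrial mean as a covariate and 4 without the 2 arrays of highest score. The genes named here were chosen after their values were seen. Prkar2b, the regulatory subunit of protein kinase A that is abundant in adipocytes, had a slope of 1.29 (limma adjusted p = 5.67e-07) and was called in both of those fits. Pcx, pyruvate carboxylase, had a slope of 0.35, and Aoc3, an amine oxidase of adipocytes and vessels, one of 0.40, and neither was called in those fits. Sbk2 and Stard10 had slopes of 0.50 and 0.63, which were 0.20 and 0.089 with the atrial mean as a covariate and not called there.

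Other genes just missed the threshold between high and low hearts while the classes did not overlap within any group. Igf1, a growth factor, ran from 5.10 to 5.60 in the high and from 4.32 to 5.18 in the low hearts (difference 0.50, limma adjusted p = 0.060). Olfm1, olfactomedin 1, differed by 0.72 (limma adjusted p = 0.079) and Chst4, a sulfotransferase, by 0.53 (limma adjusted p = 0.055).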
